A study of Mus musculus with 4 samples.

Results

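The receptors that let a macrophage bind antibody were followed through 4 RNA sequencing libraries of cultured mouse macrophages. The group held 7 genes, taken by symbol from the 34745 genes of the count table: *Fcgr1*, *Fcgr2b*, *Fcgr3*, *Fcgr4*, *Fcer1g*, *Fcgrt* and *Syk*. All 7 were present once, and all 7 passed the filter on low counts. The libraries came from 2 genotypes with 2 libraries each, labelled WT and G3bp1mac-/- and titled WT1, WT2, KO1 and KO2. Per the study's text, the cells were bone marrow-derived macrophages. The WT animals carried floxed *G3bp1* alleles (G3bp1f/f), and the KO animals carried the same alleles and a *Lyz2*-Cre transgene, which acts in myeloid cells and not in macrophages alone. The labels name no stimulus, and the age of the donor mice and whether the 2 libraries of a genotype came from different mice were not given in the sources used here. P-values therefore measure the spread between these libraries, which may be technical.

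Fc gamma receptors bind the constant part of IgG on coated particles and immune complexes, and macrophages use them to engulf such targets and to start cytokine release. In the mouse, *Fcgr1*, *Fcgr3* and *Fcgr4* encode the ligand-binding alpha chains of the activating receptors, which depend on the common gamma chain, encoded by *Fcer1g*, for its tyrosine-based activation motif (ITAM). Src-family kinases phosphorylate the ITAM, and the kinase SYK then docks on it and passes the signal on. *Fcgr2b* encodes the inhibitory receptor, whose own cytoplasmic motif recruits the phosphatase SHIP1 and restrains the activating receptors. *Fcgrt* encodes the alpha chain of the neonatal receptor FcRn, which pairs with beta-2 microglobulin inside endosomes and returns IgG from degradation.

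Of the 7 genes, 4 lie close together on chromosome 1 of the mouse genome build GRCm38. The deposited starts and ends were those annotated on that build for 6 of the 7, and for *Fcgrt* the annotated gene runs from 45092990 to 45103851. *Fcgr2b* (ENSMUSG00000026656) lies at chr1:170958617-170976547 on the minus strand, *Fcgr4* (ENSMUSG00000059089) at chr1:171018920-171029761 on the plus strand, *Fcgr3* (ENSMUSG00000059498) at chr1:171051174-171064935 on the minus strand and *Fcer1g* (ENSMUSG00000058715) at chr1:171229572-171234365 on the minus strand. *Fcgr1* (ENSMUSG00000015947) lies at chr3:96282909-96293969 on the minus strand, *Fcgrt* (ENSMUSG00000003420) at chr7:45092993-45103822 on the minus strand and *Syk* (ENSMUSG00000021457) at chr13:52583173-52648792 on the plus strand. *Fcgr2b* and *Fcgr3* are close relatives, so reads could have been split between them. Of all stretches of 100 bases in the annotated transcripts, *Fcgr3* shared 2.54% with *Fcgr2b*, and 1.40% of those of *Fcgr2b* occurred in *Fcgr3* or another gene. *Fcgr1*, *Fcgr4*, *Fcer1g*, *Fcgrt* and *Syk* shared 0 such stretches with other genes.

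The 250 bases before the annotated start site are shown for the 4 IgG-binding alpha chains of the cell surface, because their levels went different ways between libraries. They were read from RefSeq's promoter windows on GRCm38.p6, in which all 7 genes were found, and run 5′ to 3′ on the strand of the gene. *Fcgr1* is at chr3:96293970-96294219, *Fcgr3* at chr1:171059404-171059653, *Fcgr4* at chr1:171018676-171018925 and *Fcgr2b* at chr1:170976072-170976321. Capitals mark GAGGAA or its reverse complement TTCCTC, the core of the element bound by the myeloid factor PU.1, searched on both strands.
Fcgr1: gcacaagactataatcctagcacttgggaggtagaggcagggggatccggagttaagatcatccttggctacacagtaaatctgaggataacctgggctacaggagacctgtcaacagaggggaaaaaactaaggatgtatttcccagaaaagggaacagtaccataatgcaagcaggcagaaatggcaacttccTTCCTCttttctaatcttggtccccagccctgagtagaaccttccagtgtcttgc
Fcgr3: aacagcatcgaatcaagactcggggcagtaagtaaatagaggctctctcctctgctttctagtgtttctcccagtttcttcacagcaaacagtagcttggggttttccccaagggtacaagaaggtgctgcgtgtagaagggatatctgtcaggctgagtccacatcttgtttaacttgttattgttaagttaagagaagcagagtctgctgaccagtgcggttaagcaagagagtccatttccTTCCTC
Fcgr4: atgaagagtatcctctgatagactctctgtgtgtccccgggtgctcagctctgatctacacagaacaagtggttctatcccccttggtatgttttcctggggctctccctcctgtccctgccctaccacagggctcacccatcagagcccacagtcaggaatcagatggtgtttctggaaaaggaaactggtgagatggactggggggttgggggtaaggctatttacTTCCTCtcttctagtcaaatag
Fcgr2b: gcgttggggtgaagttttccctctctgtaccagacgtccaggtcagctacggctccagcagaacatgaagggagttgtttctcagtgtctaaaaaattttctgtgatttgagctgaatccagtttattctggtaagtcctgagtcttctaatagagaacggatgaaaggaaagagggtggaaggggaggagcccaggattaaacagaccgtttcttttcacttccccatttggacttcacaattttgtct
The 3 activating receptors each held 1 match to the PU.1 core, 55 bases before the start in *Fcgr1*, 22 in *Fcgr4* and 6 in *Fcgr3*, where a second annotated start lies 15 bases after the match. The windows of *Fcgr2b*, *Fcer1g* and *Fcgrt* held 0 matches, and *Syk* held 1, at 1 of its 2 annotated starts. Among all 32851 promoter windows 23.3% held this core. The letters GAAANNGAA, the core of the element of type I interferon response (ISRE), searched likewise, occurred in *Fcgr4* at 73 bases before the start and in 7.13% of all windows. The matches are descriptions of sequence, and the choice of these windows was made after the levels were seen.

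Total counts per library ran from 16724241 to 19747909, and the 7 genes together took 0.211% to 0.267% of them. Counts of the 7 ran from 325 (*Fcgrt* in WT 2) to 15785 (*Syk* in KO 2). Counting error was not set against the spread between libraries. The first principal component, with 55.9% of the variance, separated the libraries numbered 1 from those numbered 2, and the second, with 35.0%, separated WT from KO. The labels do not say what the libraries of a number share. The targeted gene *G3bp1* was counted 1691 and 2875 times in WT, against 1307 and 2296 times in KO. The difference was -0.61 on the log2 scale (KO minus WT, SE 0.40, edgeR adjusted p 0.904), with -0.57 in number 1 and -0.63 in number 2. Counts remained in both KO libraries, so the KO label could not be checked by its gene count. The study itself reports efficient loss of G3BP1 in macrophages of the KO mice, from assays of mRNA and protein. The macrophage label was borne by its markers. On the CPM scale, which gives each count relative to the TMM-scaled library total, *Adgre1*, which encodes F4/80, ran from 364 to 816 CPM, *Csf1r* from 388 to 631 CPM and *Cd68* from 2888 to 3299 CPM.

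The common gamma chain was the most abundant of the 7 transcripts in every library and also the least variable. By deposited FPKM, which scales counts by gene length so that genes can be compared, *Fcer1g* stood at 437 and 458 in WT and at 386 and 398 in KO, ranking 114th by mean FPKM among the 12418 genes tested. *Fcgr3* followed at 235 and 146 FPKM in WT and 189 and 128 in KO. *Fcgr4* had 121 and 71.3 FPKM in WT and 83.1 and 60.8 in KO. These 3 kept that order in all 4 libraries, although the ranges of *Fcgr3* and its neighbour *Fcgr4* over the libraries came close to meeting, at 128 against 121.

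The other 4 changed places between libraries. *Fcgr2b* ran from 32.3 to 57.3 FPKM and *Syk* from 17.2 to 59.5 FPKM, with *Fcgr2b* above *Syk* in WT 1 and KO 1 and below it in WT 2 and KO 2. *Fcgr1* ran from 6.04 to 18.2 FPKM and *Fcgrt* from 11.0 to 16.1 FPKM, and again the order between them differed, with *Fcgr1* the higher in WT 1 and KO 1 and the lower in WT 2 and KO 2. Neither pair differed beyond its spread over the libraries.

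The order of the middle genes rested on the gene length used. The lengths implied by the deposited FPKM, 7526 bases for *Fcgr2b*, 3829 for *Fcgr3*, 13650 for *Syk* and 1605 for *Fcer1g*, exceeded those of the main annotated transcripts, which are 1578, 1347, 5122 and 674 bases. Per kilobase of the main transcript, *Fcer1g* (824 to 1159 CPM per kilobase) and *Fcgr3* (366 to 700.3) stayed first and second, but *Fcgr2b* (138 to 289) lay above *Fcgr4* (61.0 to 126) in every library.

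**Figure D1:**
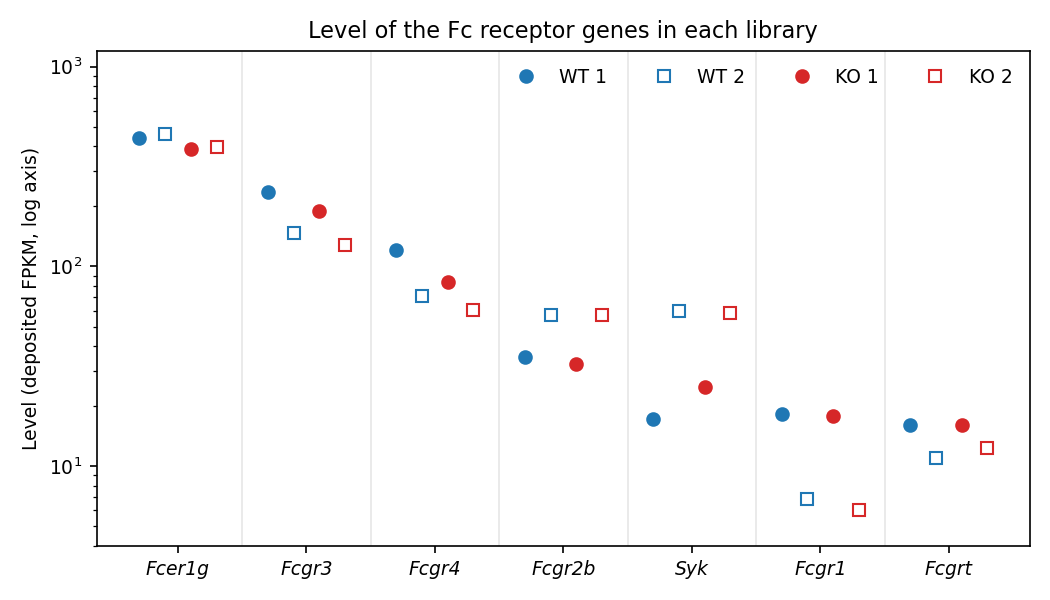
Level of each gene in the 4 libraries, in deposited FPKM on a log axis; filled circles are libraries numbered 1, open squares libraries numbered 2, blue is WT and red is KO. *Fcer1g* lies between 386 and 458 FPKM in all 4 libraries, whereas in *Syk* and *Fcgr1* the symbols separate by shape and not by colour.

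The design's own question was whether the libraries labelled KO differed from those labelled WT. A call needed an adjusted p below 0.05 and a log2 fold change beyond 1 in either direction. By edgeR's quasi-likelihood test 0 of the 7 genes were called, against 0% of the 12418 genes tested (0 genes). At an unadjusted p under 0.05 there were 0 of the 7, where 6.63% of all tested genes lay under it. The DESeq2 Wald test and the edgeR exact test called 0 of the 7 as well, where they called 1.46% and 1.84% of all tested genes. All 7 log2 fold changes were below 0, with a median of -0.26, beside 0.041 for the whole set of tested genes. For 5 of the 7 the CPM was lower in KO within both replicate numbers, where 29.0% of all tested genes were. On the deposited FPKM, which carry no TMM scaling, it was 4 of 7 and 17.0% of all tested genes, since *Fcgr2b* was then level in number 2 (57.0 and 57.3 FPKM).

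Among the activating receptors, *Fcgr4*, the receptor for IgG2 subclasses, had 159 and 95.1 CPM in WT and 93.7 and 76.6 CPM in KO. Both KO libraries lay below both WT libraries on this scale, by a narrow gap between KO 1 and WT 2. In the deposited FPKM the genotypes overlapped, with KO 1 (83.1) above WT 2 (71.3). The means were 127 ± 45.0 CPM for WT and 85.1 ± 12.1 CPM for KO (SD, n = 2 each). The fitted log2 fold change was -0.58 (SE 0.33, 95% interval -1.40 to 0.25, edgeR adjusted p 0.879). KO 1 over WT 1 gave -0.76 and KO 2 over WT 2 gave -0.31. The direction was shared within both numbers. In size the fitted difference lay between the log2 ratios of library 2 over library 1, which were -0.74 in WT and -0.29 in KO. Its interval took in 0.

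*Fcgr3*, the most abundant alpha chain and a low-affinity receptor, had 943 and 596 CPM in WT and 649 and 493 CPM in KO, so that KO 1 lay above WT 2 and the genotypes overlapped. Its log2 fold change was -0.43 (SE 0.32, 95% interval -1.23 to 0.37, edgeR adjusted p 0.928). It was -0.54 in number 1 and -0.27 in number 2. *Fcgr1*, the high-affinity receptor, had 55.7 and 21.2 CPM in WT and 46.6 and 17.7 CPM in KO. Here the genotypes overlapped widely, since each genotype had one high and one low library. The log2 fold change was -0.26 (SE 0.63, 95% interval -1.87 to 1.35, edgeR adjusted p 0.982), while the ratios within the numbers were almost the same, -0.26 in each. The value for *Fcgr1* was 0.60 without WT 1 and 0.27 without KO 2, and -1.12 without KO 1, so its pooled sign depended on single libraries. Leaving out a library moved those of *Fcgr3* and *Fcgr4* to between -0.76 and -0.061 and between -0.93 and -0.16, the values nearest 0 being those without WT 1.

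The gamma chain *Fcer1g* had 735 and 781 CPM in WT and 555 and 640.5 CPM in KO, and both KO libraries lay below both WT libraries. The means were 758 ± 32.6 CPM and 598 ± 60.2 CPM (SD, n = 2 each), so that KO held 78.9% of the WT level. Its log2 fold change of -0.34 (SE 0.22, 95% interval -0.89 to 0.21) had an edgeR adjusted p of 0.904 and was -0.40 within number 1 and -0.29 within number 2. *Fcer1g* and *Fcgr4* were thus the 2 of 7 genes whose KO libraries both lay below WT, and 0 of 7 had both above, where 16.9% and 20.0% of all tested genes did. On the deposited FPKM *Fcer1g* remained, 1 of the 7, where 9.40% of all tested genes lay below. Part of the values for these 2 short genes moved with length. The 500 tested genes nearest in length had a median log2 fold change of -0.31 for *Fcgr4* and -0.23 for *Fcer1g*. A correction for the length trend left -0.27 and -0.16. The same correction moved *Fcgr3* to -0.50, *Fcgr2b* to -0.32 and *Syk* to -0.19, farther from 0. It left *Fcgr1* at -0.24, and *Fcgrt* turned to 0.085.

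The inhibitory receptor *Fcgr2b* had 278 and 456 CPM in WT and 218 and 432 CPM in KO, and the genotypes overlapped. Its log2 fold change was -0.17 (SE 0.43, 95% interval -1.27 to 0.92, edgeR adjusted p 0.982), with -0.35 and -0.076 within the numbers, and it turned to 0.19 without WT 2 and to 0.24 without KO 1. The kinase gene *Syk* had 246 and 863 CPM in WT and 303 and 802 CPM in KO, with both KO values inside the range of WT. The pooled log2 fold change was -0.0044 (SE 0.72, 95% interval -1.83 to 1.83, edgeR adjusted p 0.999), and the ratios within the numbers were 0.30 and -0.11. The interval was wide because the libraries of each genotype lay far apart, and without WT 2 the value was 1.13, without KO 1 it was 0.53, and without KO 2 it was -0.88.

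The FcRn chain *Fcgrt* had 29.2 and 20.4 CPM in WT and 25.1 and 21.4 CPM in KO, with a log2 fold change of -0.090 (SE 0.27, 95% interval -0.78 to 0.60, edgeR adjusted p 0.983). By number the ratios were -0.22 and 0.071. The sign turned, to 0.19 without WT 1, to 0.013 without KO 2 and to 0.085 with the length correction. Levels in bulk RNA cannot tell fewer cells of a type from less RNA per cell, here or in the comparisons that follow.

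**Figure D2:**
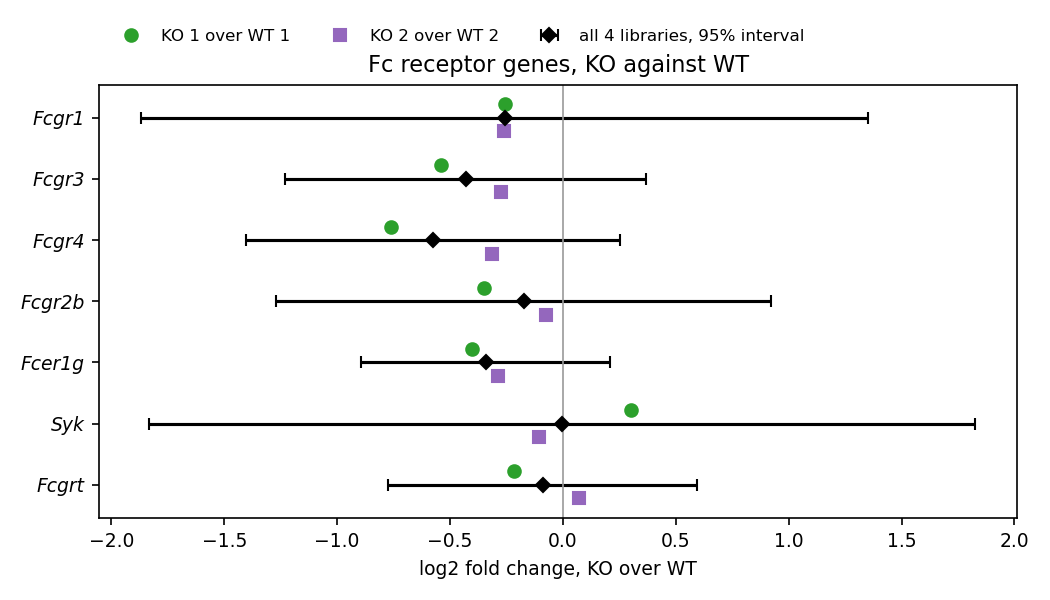
Log2 fold change of KO over WT for each gene, from the edgeR fit to all 4 libraries with its 95% confidence interval (black diamonds and bars), and the log2 ratio within replicate number 1 (green circles) and number 2 (purple squares). Every interval crosses 0, and the widest are those of *Syk* (-1.83 to 1.83) and *Fcgr1* (-1.87 to 1.35).

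For all 7 genes the libraries numbered 2 and 1 differed with the same sign in both genotypes. The share of all tested genes that did so was not counted. Across genes, deviations from the genotype mean had a correlation of 0.691 between libraries of the same number. Averaged over the genotypes, the log2 difference between the numbers was larger in size than that of KO to WT for 5 of the 7. That held for 54.9% of all tested genes. The difference between the numbers was smaller for *Fcgr4* and *Fcer1g*. With the length correction *Fcgr4* changed sides, at -0.52 between the numbers and -0.27 between the genotypes. The 2 genotypes share no library, so that WT and KO give separate values, but each is a ratio of single libraries and no test was made. *Syk* was 3.51-fold higher in WT 2 than in WT 1 and 2.64-fold higher in KO 2 than in KO 1. *Fcgr1* went the other way, 2.62-fold higher in WT 1 than in WT 2 and 2.64-fold higher in KO 1 than in KO 2. On the log2 scale (library 2 over library 1) these are 1.81 and 1.40 for *Syk* and -1.39 and -1.40 for *Fcgr1*. A log2 ratio over 1 in both genotypes was found in 4.36% of all tested genes and one under -1 in 2.42%, and 1 of the 7 genes was past each.

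The activating and the inhibitory receptors moved apart along this axis. *Fcgr3* had log2 ratios of library 2 over 1 of -0.66 in WT and -0.40 in KO, and *Fcgr4* had -0.74 and -0.29, whereas *Fcgr2b* had 0.71 and 0.99. *Fcer1g* changed little, with 0.088 and 0.21, and *Fcgrt* had -0.51 and -0.23. The median over all tested genes was -0.0030 in WT and -0.0042 in KO, and among the 500 tested genes nearest in length to *Syk* it was 0.17 in WT and -0.13 in KO. For *Fcgr4* the same median was -0.33 in WT and 0.15 in KO, and for *Fcer1g* it was -0.23 and 0.13.

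The balance of the receptor transcripts differed more between libraries of a genotype than between genotypes. The summed FPKM of *Fcgr1*, *Fcgr3* and *Fcgr4* was 10.6 times that of *Fcgr2b* in WT 1 and 3.94 times in WT 2, and 8.97 times in KO 1 and 3.41 times in KO 2. *Fcgr2b* accounted for 8.62% of the FPKM of these 4 receptors in WT 1 and 10.0% in KO 1, but 20.2% in WT 2 and 22.7% in KO 2. The means were 7.27 ± 4.71 in WT and 6.19 ± 3.94 in KO (SD, n = 2 each), a difference well within the spread. With the lengths of the main transcripts the ratios were 4.81, 1.82, 4.16 and 1.58 in the same order of libraries. The alpha chains of the activating receptors held 0.856 of the FPKM of their partner *Fcer1g* in WT 1 and 0.752 in KO 1, and 0.490 in both WT 2 and KO 2. *Syk* rose against *Fcer1g* from a ratio of 0.0393 in WT 1 to 0.130 in WT 2, and from 0.0643 in KO 1 to 0.147 in KO 2.

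**Figure D3:**
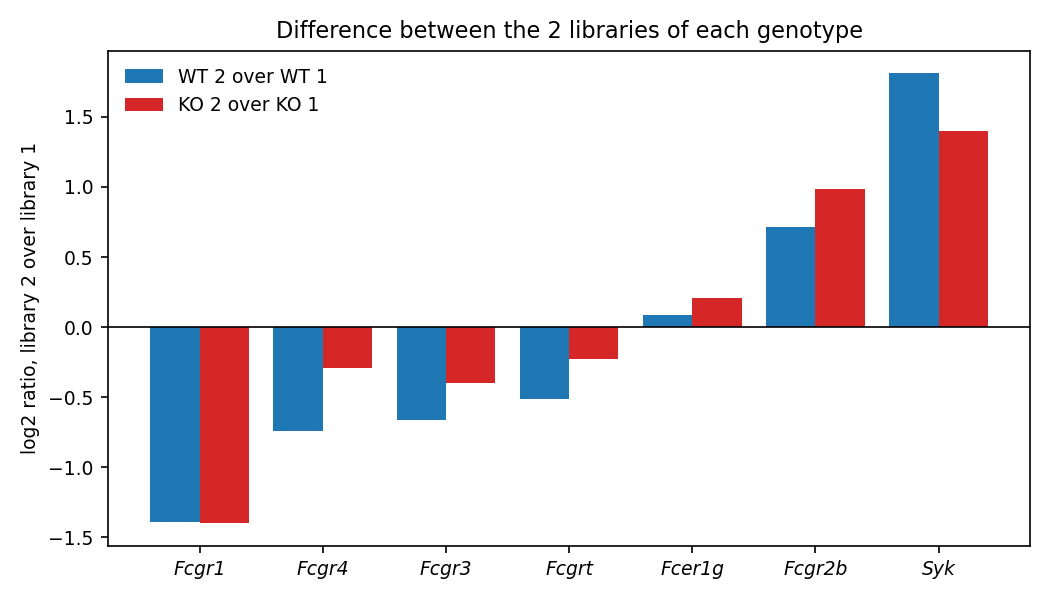
Log2 ratio of library 2 over library 1 for each gene, in WT (blue bars) and KO (red bars). *Fcgr1*, *Fcgr4*, *Fcgr3* and *Fcgrt* are below 0 in both genotypes and *Fcer1g*, *Fcgr2b* and *Syk* above it.

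The 7 genes also differed from each other in how alike their profiles over the 4 libraries were. Likeness was measured as the root mean square difference of log2 CPM centred on each gene's mean, and it is a description over 4 libraries. The closest pair was *Fcgr3* and *Fcgr4*, at 0.080, followed by *Fcgr3* and *Fcgrt* at 0.19, and the farthest pair was *Fcgr1* and *Syk*, at 1.51. *Fcgr2b* was closest to *Fcer1g*, at 0.36, and then to *Syk*, at 0.44. Among 8091 other genes with a mean of at least 10 CPM, the 2 nearest were *Nabp1* (0.045) and *Arhgap18* (0.071) for *Fcgr1*, *9430038I01Rik* (0.040) and *Ift27* (0.048) for *Fcgr3*, and *Cbr4* (0.020) and *Insl6* (0.026) for *Fcgr4*. For *Fcgr2b* they were *Rac2* (0.020) and *Nadk* (0.040), and for *Syk* they were the adhesion receptor gene *Cd44* (0.049) and *Rhbdf2* (0.051). *Fcer1g* was nearest to *Mrpl9* (0.015) and *Pitpna* (0.020), and *Fcgrt* to *Tmem230* (0.012) and *Rnf167* (0.018). A flat profile is easily matched, and 263 genes lay within 0.1 of *Fcer1g* and 235 within 0.1 of *Fcgrt*, against 5 for *Fcgr1* and 15 for *Syk*.

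The pathway around the receptors was then described from lists. Of 11 listed kinases that act next to the receptor, the 10 of the Src and Tec families were tested, and *Zap70*, a relative of *Syk*, was too low. None was called for KO against WT in edgeR's quasi-likelihood test, the DESeq2 Wald test or the edgeR exact test, and 1 had an unadjusted p under 0.05 in the quasi-likelihood test. This was *Yes1*, counted 8 and 13 times in WT and 42 and 26 times in KO. The median log2 fold change was -0.10, but it was 0.73 without WT 2 and -0.84 without KO 2. Between the libraries numbered 2 and 1, 4 of the 10 had a log2 ratio over 1 in both genotypes, against the 4.36% given above. Of these, *Fgr* and *Lyn*, named after their values were seen, encode Src-family kinases typical of myeloid cells. *Fgr* had 25.9 and 102 CPM in WT and 35.1 and 103 CPM in KO, and *Lyn* had 111 and 320.1 CPM in WT and 120.3 and 279.8 CPM in KO. In both genes the libraries numbered 2 were the high ones, as in *Syk*. *Tec* was under -1 in both, with 171 and 83.2 CPM in WT and 161 and 77.1 CPM in KO.

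Downstream of SYK, all 33 listed genes of activating signalling were tested. Their KO to WT median was 0.012, but 0.26 without WT 2 and -0.059 without KO 2, none was called by any of these tests and none had an unadjusted p under 0.05 in the quasi-likelihood test. The genes with the smallest p were *Cdc42* (log2 fold change -0.38, SE 0.20), *Lat2* (-0.45, SE 0.31) and *Sos1* (0.40, SE 0.30). Between the numbers, 3 of 33 were over 1 in both genotypes and 0 under -1, where 4.36% and 2.42% of all tested genes were. *Malt1*, which encodes a signalling protease, had 69.5 and 656 CPM in WT and 89.6 and 593 CPM in KO. *Lcp2*, which encodes the adaptor SLP-76, had 57.6 and 303 CPM in WT and 56.8 and 216 CPM in KO, and *Vav3*, an exchange factor for Rac, had 42.5 and 166 CPM in WT and 52.0 and 141 CPM in KO. Other genes at the same step differed less between the numbers: *Plcg2*, the phospholipase that SYK activates, had 49.9 and 58.5 CPM in WT and 67.3 and 50.2 CPM in KO, and *Card9* lay between 34.8 and 36.3 CPM in all 4 libraries.

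Of the 19 genes of inhibitory signalling, 18 were tested, with a KO to WT median of 0.035 that lay between -0.023 and 0.13 with a library left out, lowest without WT 1 and highest without WT 2. The quasi-likelihood test called 0, with 1 at an unadjusted p under 0.05, and the exact test called 0, while the DESeq2 Wald test called 1, lower in KO, where it called 0.362% of all tested genes lower. The gene was *Clec4a2*, an inhibitory lectin receptor of myeloid cells, with 46.5 and 47.3 CPM in WT but 17.8 and 24.03 CPM in KO. Its log2 fold change was -1.17 (SE 0.25, edgeR adjusted p 0.298), with -1.38 and -0.98 within the numbers, and both KO libraries lay below both WT libraries. *Dok2* (-0.53, SE 0.22) and *Pag1* (0.73, SE 0.31) had the next smallest p. Between the numbers, 2 of 18 were over 1 in both genotypes (*Sla* and *Lilrb4a*) and 1 was under -1, against the same 4.36% and 2.42%. This was *Inpp5d*, which encodes SHIP1, the phosphatase that *Fcgr2b* signals through. It had 53.7 and 25.7 CPM in WT and 72.8 and 27.1 CPM in KO, so that it was low in the libraries in which *Fcgr2b* was high.

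**Figure D4:**
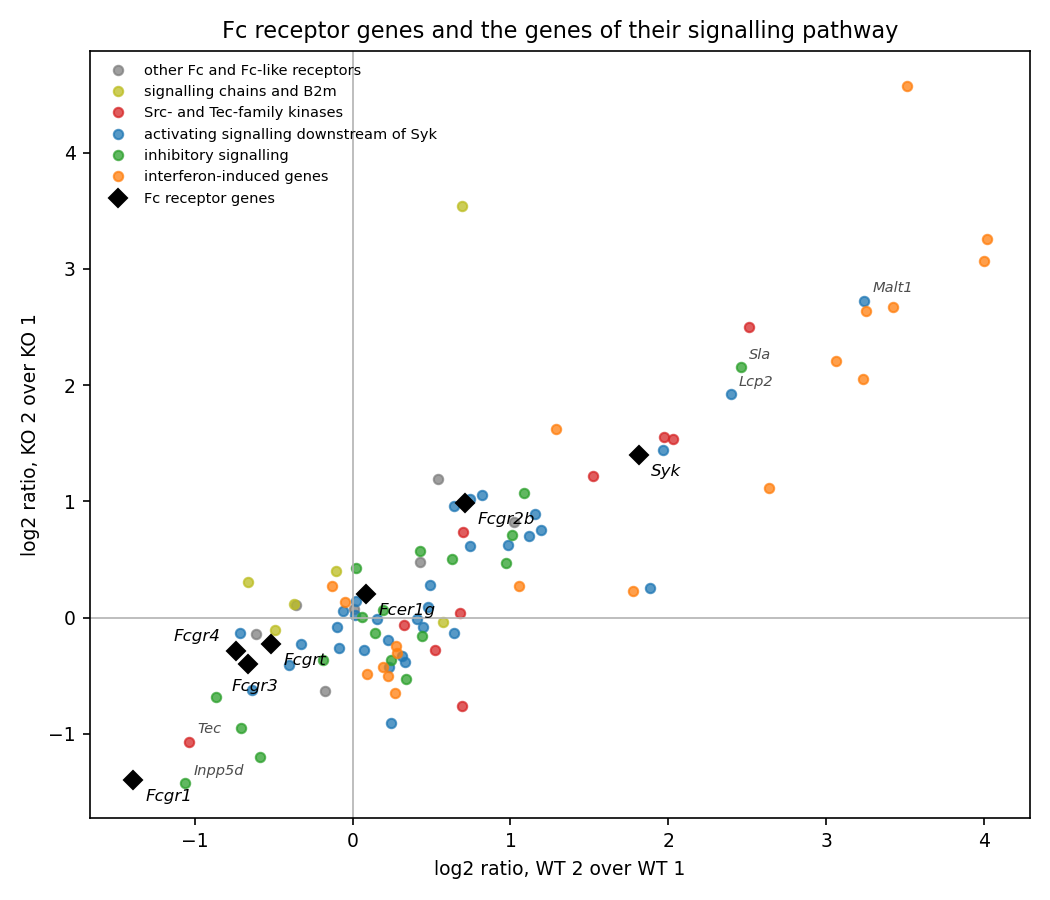
Log2 ratio of library 2 over library 1 in WT (horizontal axis) and KO (vertical axis) for the 7 Fc receptor genes (black diamonds) and the tested genes of 6 lists (coloured circles). *Syk* (1.81 in WT, 1.40 in KO) lies at the upper right, nearer the origin than *Lcp2* (2.39, 1.93) and *Malt1* (3.24, 2.73). *Fcgr1* lies at the lower left beside *Inpp5d*.

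A further list held *B2m* and 5 signalling chains of other immune receptors, *Tyrobp*, *Hcst*, *Cd247*, *Cd79a* and *Cd79b*, all tested and all below 0 in KO, with a median log2 fold change of -0.76. The quasi-likelihood test called 0 of them, with 3 at an unadjusted p under 0.05, and the other 2 tests called 0. *B2m*, which encodes the beta-2 microglobulin that FcRn and MHC class I share, had 5131 and 4761 CPM in WT and 2519 and 3325 CPM in KO, with a log2 fold change of -0.76 (edgeR adjusted p 0.470, SE 0.21). Both KO libraries lay below both WT libraries, as they did not for its partner *Fcgrt*. *Hcst* (-0.77, SE 0.26) and the B cell receptor gene *Cd79b* (-1.13, SE 0.31) also had an unadjusted p under 0.05. *Tyrobp*, the DAP12 adaptor that also carries an ITAM, had 1461 and 921 CPM in WT and 765 and 945 CPM in KO and overlapped between genotypes. *Cd79a* and *Cd79b* are B cell receptor chains and also belong to the B cell markers, which summed to 43.2 and 47.0 CPM in WT and 23.4 and 27.0 CPM in KO and whose part in the median of the list was not tested. The values of this list moved with gene length, and its median was -0.47 with the length correction.

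Other Fc and Fc-like receptors were mostly low. Of 14 genes 7 were tested, 4 never exceeded 3 counts in a library, and *Fcamr*, *Fcrl6* and *Clec4g* had 0 counts in all 4, which allows up to 0.152 to 0.188 CPM per library (3 counts, counting error only). The median log2 fold change was -0.42, but -0.19 without KO 1, -0.23 without WT 2 and -0.64 without KO 2, and none was called by the 3 tests. *Fcer1a*, the alpha chain of the high-affinity IgE receptor, was counted 38 and 29 times in WT and 14 and 16 times in KO, with a log2 fold change of -1.40 (edgeR adjusted p 0.517, SE 0.42) and the list's one unadjusted p under 0.05. *Fcrla* (-0.70, SE 0.44) and *Fcrl1* (0.58, SE 0.39) followed. *Cd300ld* was the most abundant of the list, at 229 and 231 CPM in WT and 189 and 200 CPM in KO. *Trim21*, the receptor for antibody in the cytosol, had 17.4 and 35.4 CPM in WT and 17.2 and 30.5 CPM in KO.

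Interferon-induced genes were set beside the receptors because *Fcgr1* and *Fcgr4* are known to respond to interferon. Of 20 genes 19 were tested, and 18 were below 0 in KO, with a median of -1.16 that became -0.14 without WT 2. The quasi-likelihood test called 0, with 7 at an unadjusted p under 0.05, all lower in KO, while the DESeq2 Wald test called 5 and the exact test 3, all lower, where these tests called 0.362% and 0.290% of all tested genes lower. *Usp18* (log2 fold change -1.91, SE 0.32), *Oasl1* (-1.96, SE 0.35) and *Irf7* (-1.44, SE 0.28) had the smallest p, with edgeR adjusted p of 0.250, 0.262 and 0.284. Both KO libraries lay below both WT libraries for 9 of the 19, against 16.9% of all tested genes. Between the numbers the list went against *Fcgr1* and *Fcgr4*: 9 of 19 were over 1 in both genotypes, against 4.36% of all tested genes, and 0 were under -1. *Gbp2* had 19.0 and 308 CPM in WT and 18.7 and 179 CPM in KO, high where *Fcgr1* was low.

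Markers of other cells that carry Fc receptors were measured in the same libraries, and their part in the values above was not tested. Beside the B cell markers given above, the 6 mast cell and basophil markers summed to 34.2 and 36.8 CPM in WT and 18.7 and 22.5 CPM in KO, with *Mcpt8* at 0 counts. For all 5 tested B cell markers and 2 of the 3 tested mast cell and basophil markers, each KO library was below either WT library, against 16.9% of all tested genes. The 7 neutrophil markers summed to 74.4 and 101 CPM in WT and 67.0 and 73.3 CPM in KO, with *Mpo* and *Elane* at 0 counts and *Ly6g* at no more than 1. Most of that sum was *Csf3r*, at 48.1 and 76.3 CPM in WT and 59.6 and 62.1 CPM in KO, while the other 3 tested neutrophil markers were lower in each KO library, and the list's median log2 fold change was -2.40. *S100a9* was counted 91 and 82 times in WT and 2 and 1 times in KO, and *Retnlg* 99 and 71 times in WT and 3 and 9 times in KO. The 5 NK cell markers summed to at most 1.23 CPM and the 5 dendritic cell markers to at most 5.33 CPM. The 4 endothelial markers summed to 33.1 and 24.0 CPM in WT and 56.5 and 37.7 CPM in KO. Most of it was *Vwf*, at 26.8 and 19.6 CPM in WT against 49.3 and 34.9 CPM in KO, while the median log2 fold change of the 3 tested was 0.062. The 6 stromal markers summed to 73.2 and 85.2 CPM in WT and 319 and 290.4 CPM in KO, and all 6 were higher in each KO library than in either WT library, against 20.0% of all tested genes. The 9 macrophage markers that matched 1 gene summed to 29803 and 27388 CPM in WT and 22876 and 27206 CPM in KO. Most of that sum was *Lyz2*, the gene named in the Cre transgene of the KO animals. It had 21870 and 18677 CPM in WT and 16869 and 19496 CPM in KO, and the genotypes overlapped. Of the 9 markers 8 were below 0, with a median log2 fold change of -0.18, where the 7 receptor genes had a median of -0.26.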

How the data were processed

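The series holds 4 RNA sequencing libraries of cultured macrophages, 2 for each genotype. The authors filtered reads with Seqtk, aligned them with HISAT2 2.0.4 and counted fragments per gene with StringTie 1.3.3b. They deposited raw counts with an FPKM value beside each. The deposited counts were whole numbers. The deposited FPKM carried the library total and a gene length only, since for the 9489 genes with over 50 counts everywhere the implied length varied by no more than 0.0017% from library to library. The submitters' processing notes name the build mm39, but 80.8% of the 34267 gene identifiers shared with GENCODE release M21 had identical starts and ends on GRCm38, so positions are given on GRCm38. Use of strand in counting was not given in the sources used here.

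The fit was made with edgeR 4.0.16 in R 4.3.3: filterByExpr (minimum count 10, minimum total 15), TMM, and glmQLFit and glmQLFTest with genotype as the only term, two-sided, Benjamini-Hochberg adjusted over 12418 genes. Calls needed an adjusted p below 0.05 and a log2 fold change beyond 1 in either direction, after the study's methods. CPM used TMM-scaled totals (factors 0.942 to 1.12), and ratios between single libraries had 0.5 counts added. Alternatives were DESeq2 size factors, no filter, the Wald test of DESeq2 1.42.0, edgeR's exact test, a replicate block, a loess correction for length (span 0.5), both together, and each library left out. The code was tested on simulated data.

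The members and lists were chosen with earlier results of these data known. The 7 genes and *G3bp1* were always named, with called genes of a list or otherwise up to 3 with the smallest p, and the 2 nearest profiles per member. Other names were chosen after values were seen. Amino acid sequences were not analysed here, and some genes of the lists are not reported here by name.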

Additional observations from a re-analysis of the deposited data

How the results depend on the processing

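The number of genes called over all tested genes, 0 in the quasi-likelihood fit, was 181 with the DESeq2 Wald test, 229 with the edgeR exact test, 664 with the replicate block and 401 with the replicate block with gene length correction, and between 0 and 1 with a library left out (*Pkp2*, without WT 1 or without WT 2). The cause of these differences was not tested. None of these alternatives called any of the 7 Fc receptor genes. With a library left out, log2 fold changes ran from -1.12 to 0.60 for *Fcgr1*, -0.76 to 0.24 for *Fcgr2b*, -0.36 to 0.19 for *Fcgrt* and -0.88 to 1.13 for *Syk*, and *Fcgr3*, *Fcgr4* and *Fcer1g* stayed negative in all 11 alternative fits. These fits leave 1 genotype with a single library, which is assumed to vary like the other. *Fcgrt* was 0.085 after correction for length and 0.088 when the block was also fitted.

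No label says what libraries of 1 number have in common, and pairing cannot be established from 2 pairs. Across genes, deviations from the genotype mean had a correlation of 0.691 between libraries that carry the same number. In the fit with the replicate block, the log2 fold change was -0.54 for *Fcgr4* (adjusted p 0.145), -0.35 for *Fcer1g* (0.481) and -0.41 for *Fcgr3* (0.362), and 0.098 for *Syk* (0.879), whose sign turned. The 95% interval of *Fcgr4* in that fit was -0.98 to -0.091. *Fcgr4* alone of the 7 had an unadjusted quasi-likelihood p under 0.05 there, as did 2276 of the 12418 tested genes. With the length correction added it was *Fcgr3* alone of the 7, and 2281 of all tested genes. The block called 1 gene of the other Fc receptors (*Fcer1a*), 1 of the signalling chains (*Cd79b*), 1 of inhibitory signalling (*Clec4a2*) and 10 interferon-induced genes, all lower in KO, where it called 170 of all tested genes (1.37%) lower, or 112 (0.902%) with the length correction added. With the length correction added the call of *Fcer1a* was lost, while the signalling chains and inhibitory signalling kept 1 call each and interferon-induced genes had 9. The DESeq2 Wald test called 1 gene of inhibitory signalling and 5 interferon-induced genes, and the exact test 3 of the latter. The median of the signalling chains and *B2m*, -0.76, was -0.47 after correction for length, whether or not the block was fitted. With a library left out, the kinase median ran from -0.84 to 0.73 and the interferon-induced median from -1.70 to -0.14. The log2 ratio of library 2 to 1 of *Fcgr1*, averaged over genotypes, moved from -1.39 to -1.45 with the length correction, and the deposited FPKM gave the changed counts printed with the genes, both alternatives chosen after seeing the data. Of the other results, 189 of the comparisons between KO and WT and 26 ratios or counts stayed on the same side or within their spread. In the fit with genotype as the only term, the 95% confidence intervals of the 7 genes were 1.10 to 3.66 wide on the log2 scale, with 2 libraries per genotype. Those of *Syk* and *Fcgr1* took in a 2-fold change in either direction.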
